A study of Spirodela polyrhiza and Pistia stratiotes and Colocasia esculenta with 79 samples.

Results

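The petiole of taro, Colocasia esculenta, was compared with its leaf blade by RNA sequencing. The members were chosen by their labels: the 6 Petiole libraries and the 8 blade libraries, of which 4 are named Apical and 4 Basal, 14 of the 79 libraries of the series. The series as a whole dissected duckweeds, Pistia and taro to compare their body plans. Per the labels, each library is a biological replicate of polyadenylated RNA; no strain, age or growth condition is given for taro in the sources used here, and nothing says whether libraries came from separate plants, so p-values measure the spread between these libraries only. Petiole RNA was pooled from 3 aliquots of about 100 mg of ground tissue and cleaned with an additional kit. Blade RNA was taken from 1 such aliquot with an added wash. Extraction therefore changes with the tissue between these regions, and its part in each difference between petiole and blade cannot be told apart from that of the tissue. The 3 taro Sheath libraries share the extraction of the petiole and are shown for reference.

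The petiole is the stalk that carries a leaf; in taro it is long, fleshy and rich in air spaces, with many vascular bundles and strands of supporting tissue. The blade is the flat photosynthetic organ, in which the transcripts of the light-harvesting apparatus and of carbon fixation usually make up a large part of the messenger RNA. The sheath is the broad base by which the petiole wraps the shoot. The deposited table identifies transcripts by numbered gene models (EVM identifiers) without names, so marker genes of the tissues could not be looked up, and what each transcript encodes is not stated here.

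Petiole and blade libraries fell into separate sets across the transcriptome. Levels were given in TPM, a transcript abundance scaled to a common total in each library that carries no read depth; library totals lay between 999144 and 999792 TPM in taro. On the log2(TPM + 1) scale the mean Pearson r over all 19418 transcripts was 0.892 among petiole libraries (15 pairs, 0.847 to 0.937) and 0.732 between petiole and blade (48 pairs, 0.586 to 0.828). Blade libraries of different numbers had a mean r of 0.907 (24 pairs, 0.817 to 0.966). Each r is taken over transcripts of shared libraries and is given as a description. The first principal component carried 56.0% of the variance and placed the 6 petiole libraries between 0.60 and 0.97 and the 8 blade libraries between -0.88 and -0.20, without overlap.

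**Figure D1:**
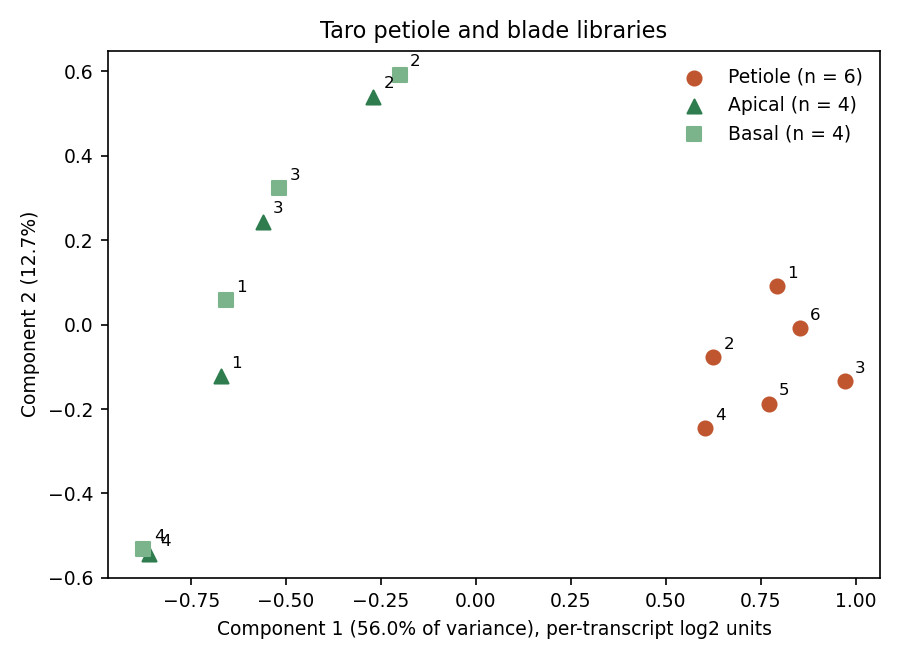
Principal components of the 14 libraries on log2(TPM + 1), centred per transcript; each point is a library, marked with its replicate number. Petiole libraries lie at 0.60 or above on component 1 and blade libraries at -0.20 or below, and Apical and Basal of the same number lie next to each other.

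Apical and Basal libraries that share a number were closer to each other than to any other library. Their r was 0.967 to 0.986 over the 4 numbers, and each of the 8 blade libraries had its same-numbered counterpart as its closest library among all 17. The deviations from the region mean correlated at 0.512, 0.865, 0.650 and 0.892 for numbers 1 to 4. Apical and Basal of a number were therefore averaged on the log2 scale into 1 blade value, and petiole against blade was a comparison of 6 libraries with 4 values.

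Of 17722 transcripts tested, 7104 differed between petiole and blade (40.1%) at a limma Benjamini-Hochberg adjusted p under 0.05. Higher in the petiole were 4686 (26.4%), and lower were 2418 (13.6%). The median difference among the higher transcripts was 1.46 on the log2(TPM + 1) scale, with an interquartile range of 1.04 to 2.20, and among the lower ones it was 1.72 in size, with a range of 1.22 to 2.39. A difference on this scale understates the change of transcripts at low TPM. Transcripts with a difference of at least 2 numbered 1419 among the higher (30.3%) and 926 among the lower (38.3%). Those with at least 5 numbered 74 (1.58%) and 14 (0.579%). Over all tested transcripts, 13.6% reached 2 and 0.497% reached 5, in either direction. In 2921 of the 4686 higher transcripts all 6 petiole libraries lay above all 8 blade libraries, and in 1538 of the 2418 lower ones all lay below; over all tested transcripts this held for 16.6% and 8.83%. With petiole libraries 1 to 4 alone, 33% were called, 20.5% higher and 12.5% lower. In bulk tissue, fewer cells of a type and less RNA per cell cannot be told apart.

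The balance between higher and lower calls depended on the scale. The median difference over all tested transcripts was 0.26, and with the libraries rescaled by median-of-ratios size factors it was 0.03. After that rescaling 3674 transcripts were higher and 3324 lower, so the share of higher calls went from 66.0% to 52.5%. Of the 7104 calls, 6092 were also made after rescaling, and 0 of these had the opposite sign. The shift by rescaling is small beside most called differences, so an opposite call was hardly possible and its absence is not a test.

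**Figure D2:**
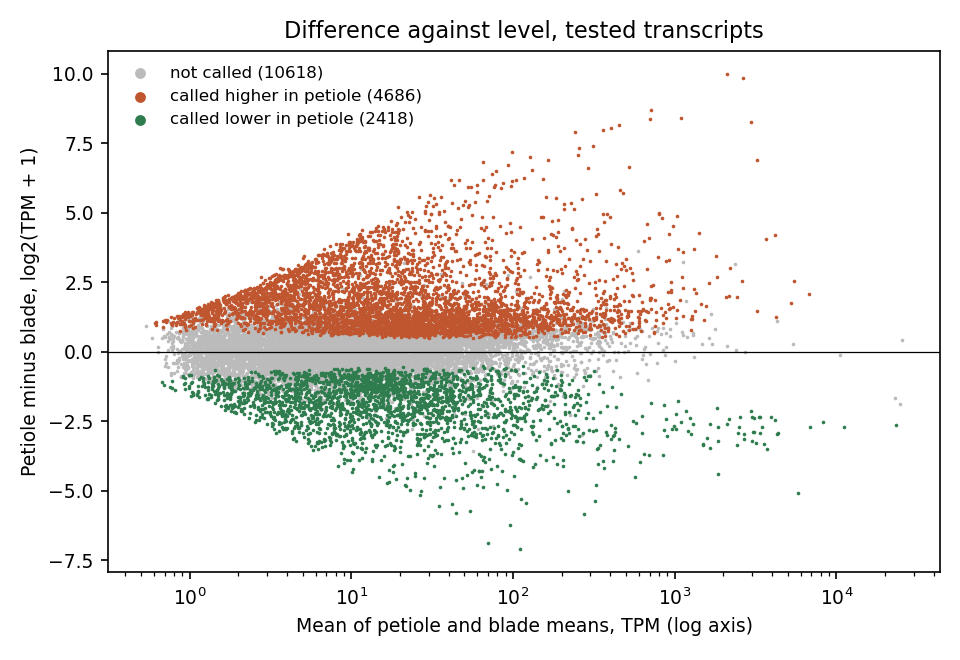
Difference between petiole and blade on log2(TPM + 1) against the mean of the petiole and blade means in TPM (log axis), 1 point for each of the 17722 tested transcripts. Points above 0 are higher in petiole; the largest differences reach 9.97 upward and -7.08 downward.

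The transcript with the largest difference in favour of the petiole was EVM0026502.1. It stood at 5043, 1685, 2951, 2232, 7310 and 5840 TPM in petiole libraries 1 to 6. In the Apical libraries 1 to 4 it was listed at 1.74, 31.6, 0 and 0 TPM, and in Basal at 2.77, 91.5, 0 and 0. The regions did not overlap, and the blade libraries numbered 2 were the highest of the blade. The difference was 9.97 (SE 0.97, limma adjusted p = 2.54e-05). The 3 Sheath libraries had 3.38, 7.26 and 3.80 TPM, close to the blade.

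The 8 transcripts with the largest differences in this direction, EVM0026502.1 included, formed a group picked by that size. They were abundant in the petiole and much lower in the blade, where single libraries ranged from 0 to 184 TPM. Their petiole means ran from 799 to 5894 TPM and their blade means from 3.08 to 48.6 TPM. Differences lay between 8.06 and 9.97, with limma adjusted p from 8.74e-06 to 0.000146. By the averaged log2 values, blade number 2 was the highest of the 4 for 4 of the 8 and number 1 for the other 4. By single libraries, Basal library 2 was the highest of the blade for all 8. Sheath means ranged from 0 to 570 TPM. For 5 of the 8, petiole libraries 1, 3 and 6 each lay above petiole libraries 2, 4 and 5, a split noticed after the values were seen. The same held for 16.4% of all tested transcripts and for 23.8% of the 4686 called higher. The third of the group shows this pattern, with 2308, 2881 and 1934 TPM in libraries 1, 3 and 6 against 383, 282 and 759 in libraries 2, 4 and 5.

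The 5 most abundant transcripts called higher without overlap were picked by level rather than by difference, and their differences lay between 1.77 and 4.21. EVM0028411.1 had the highest petiole mean of all higher transcripts whose libraries did not overlap. Its levels in petiole libraries 1 to 6 were 9683, 18815, 8181, 11790, 8173 and 9393 TPM. Apical libraries 1 to 4 had 3165, 3969, 1900 and 1877 TPM, and Basal libraries 2542, 3513, 1928 and 1921. The lowest petiole library thus stood above the highest blade library, and petiole library 2 was the highest of the 6. The difference was 2.08 (SE 0.36, limma adjusted p = 0.000938), and 1.80 after rescaling. Sheath libraries lay between 3585 and 4826 TPM. Their mean on the log2 scale, 12.00, was nearer to the blade (11.28) than to the petiole (13.36), but after rescaling it was nearer to the petiole (12.81, with petiole at 12.98 and blade at 11.18). The 5 most abundant transcripts of this kind had petiole means of 6606 to 11006 TPM and blade means of 699 to 2602.

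Lower in the petiole, EVM0003519.1 showed the largest difference. Petiole libraries 1 to 6 had 0.120, 0.569, 0, 0.832, 0 and 1.11 TPM. Apical libraries 1 to 4 had 79.1, 387, 138 and 162 TPM, and Basal libraries 142, 517, 144 and 190. The lowest blade library stood far above the highest petiole library, and number 2 was again the highest in the blade. The difference was -7.08 (SE 0.40, limma adjusted p = 1.54e-06). Sheath libraries had 8.85, 3.83 and 0 TPM, of which the highest lay below every blade library. The 8 transcripts with the largest differences in this direction had blade means of 69.2 to 538 TPM and petiole means of 0 to 8.34 TPM. They were less abundant on their high side than the 8 petiole-higher ones. Both sets were picked by the size of the difference, and a larger difference itself requires a higher level on the high side.

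The most abundant of the lower transcripts without overlap was EVM0015745.1. It stood at 22497, 12729, 18095 and 20861 TPM in Apical libraries 1 to 4 and at 24905, 12428, 18028 and 24016 in Basal. Petiole libraries 1 to 6 had 2516, 3963, 2282, 3974, 2245 and 2648 TPM. It was therefore still an abundant transcript in the petiole, at a mean of 2938 ± 812 TPM (SD, n = 6) against 19195 ± 5029 (n = 4 blade values). The difference was -2.71 (SE 0.34, limma adjusted p = 0.000119). In the sheath it lay between 4484 and 8170 TPM, above every petiole library and below every blade library on the deposited scale. After rescaling the sheath mean on the log2 scale, 13.51, lay between petiole (11.10) and blade (14.09). The 5 most abundant transcripts of this kind had blade means of 7652 to 19195 TPM and petiole means of 412 to 2938.

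The 3 most abundant transcripts that were not called took a large share of several libraries. EVM0015452.1 was the most abundant transcript of every petiole library, at 24438, 43780, 22269, 34022, 21833 and 30300 TPM in libraries 1 to 6, and lay at 18091 to 25423 TPM in the blade. Its difference was 0.42 (SE 0.40, limma adjusted p = 0.432), and the ranges overlapped. EVM0020882.1 spread over more than 2 orders of magnitude within the blade, with 24377, 1257, 6456 and 148558 TPM in Apical and 10860, 226, 3313 and 120232 in Basal libraries 1 to 4. Petiole libraries 1 to 6 had 704, 994, 963, 24902, 10645 and 2137 TPM. The number 4 libraries of the blade and petiole library 4 were the highest of their regions, and all ranges overlapped (difference -1.67, SE 1.43, limma adjusted p = 0.381). EVM0021315.1 followed the same order in the blade, from 943 TPM in Basal library 2 to 120870 TPM in Apical library 4, with petiole libraries at 1286 to 23875 TPM. Its difference was -1.87 (SE 1.09, limma adjusted p = 0.195), and it was called without blade number 2 (-2.99, limma adjusted p = 0.0251). In the sheath EVM0020882.1 alone reached 284830 to 312893 TPM.

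**Figure D3:**
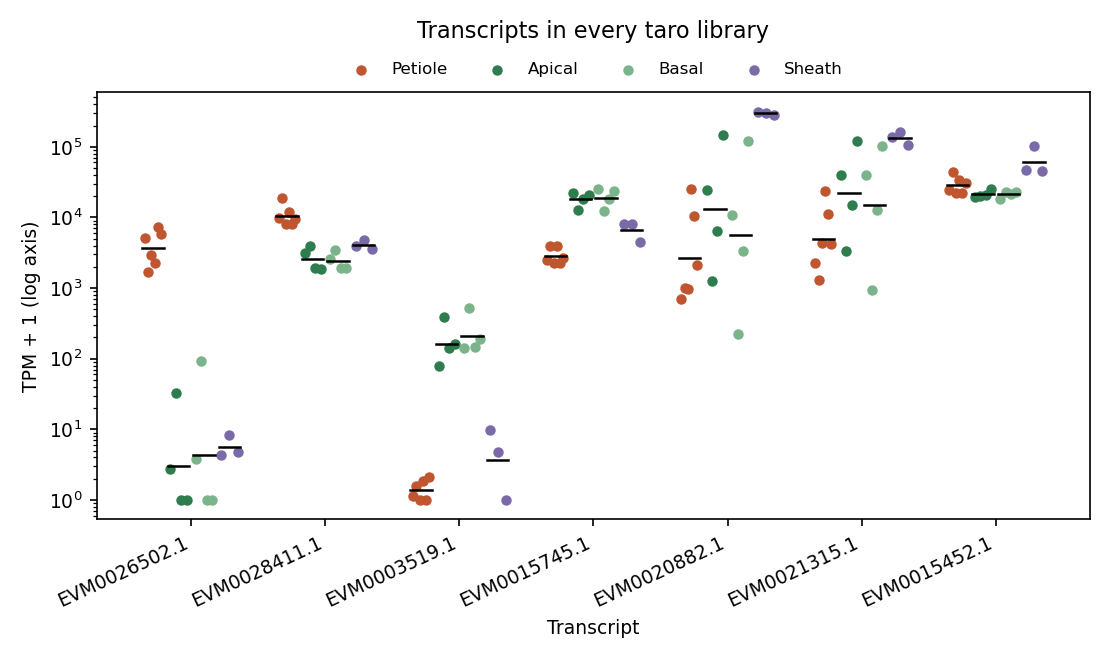
TPM + 1 (log axis) of the 7 transcripts described here, with a point for each of the 17 taro libraries and a bar at the mean on the log scale for each region. The first 4 transcripts separate petiole from Apical and Basal without overlap; EVM0020882.1 and EVM0021315.1 spread within the blade and are highest in Sheath.

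The most abundant transcripts held a smaller share of the TPM in petiole than in blade. The 10 most abundant transcripts held 8.94% to 15.0% of the TPM in the 6 petiole libraries, with a median of 10.9%, and 14.6% to 37.2% in the 8 blade libraries, with a median of 19.6%. The means were 11.7% ± 2.36 (SD, n = 6) and 22.4% ± 9.23 (n = 4 blade values), a difference of -10.7 percentage points with p = 0.0190 in a two-sided exact permutation test (0.0381 after adjustment over the 2 measures tested). Without blade number 4, which holds the 2 libraries rich in EVM0020882.1, the difference was -6.34 points, and it no longer passed after adjustment (exact permutation test, adjusted p = 0.0952). With 1 petiole library or blade number left out, the adjusted p stayed under 0.05 in 2 of 10 cases, without petiole library 4 and without blade number 2. It lay between 0.0635 and 0.0952 in the others. Leaving out a unit also raises the smallest p that the permutation test can give, so part of each loss is built in. For the 100 most abundant transcripts the difference was -16.2 points. To reach 50% of the TPM, 304 to 467 transcripts were needed in a petiole library and 54 to 297 in a blade library. Transcripts that reached 1 TPM numbered 16486 ± 538 in petiole (n = 6) and 16037 ± 547 in blade (n = 4), and this difference did not pass (exact permutation p = 0.248; 0.00952 is the smallest this design can give).

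The called transcripts made up a large part of each petiole and blade library. Those called higher held 49.3% to 57.6% of petiole TPM and 11.6% to 21.9% of blade TPM; those called lower held 5.90% to 9.28% and 32.5% to 51.5%. These shares describe transcripts picked by the same comparison and are not a test. The blade share was carried by fewer transcripts: 23 to 34 of the 2418 lower ones held 50% of that class in a blade library, whereas 135 to 183 of the 4686 higher ones did so in a petiole library. Among the 10 most abundant transcripts by mean, 5 were common to petiole and blade, and among the 50 most abundant 13 were. Of the 50 most abundant in the blade 40 were called lower in the petiole, and of the 50 most abundant in the petiole 33 were called higher. Over all tested transcripts the shares were 13.6% lower and 26.4% higher; each list was picked by its level on 1 side, which itself favours calls in that direction.

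**Figure D4:**
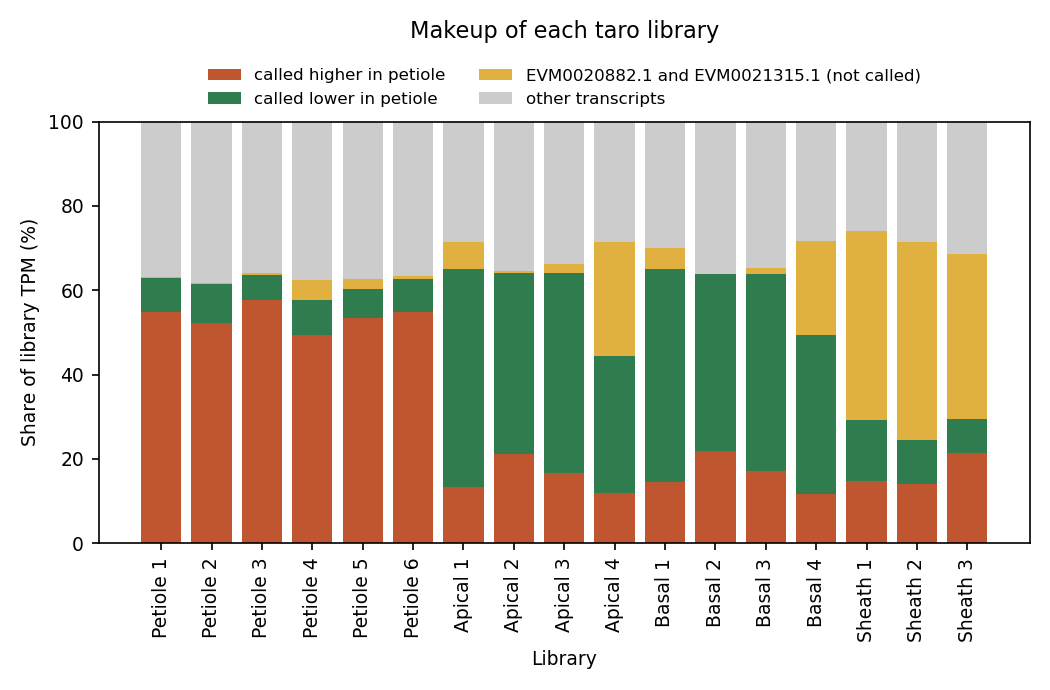
Share of library TPM (%) in each of the 17 taro libraries, split into transcripts called higher in petiole, called lower, the pair EVM0020882.1 and EVM0021315.1, and all others. The higher class holds 49.3% or more of each petiole library and 21.9% or less of each blade library, and the pair holds 39.1% to 47.0% of each Sheath library.

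The direction of the calls changed with the level of the transcript. Levels here are the mean of the petiole and blade means. Below 2 TPM, 16.1% of 1617 transcripts were higher in the petiole and 9.15% lower. The higher share grew through each class to 56.3% of 343 transcripts between 300 and 1000 TPM, where 13.7% were lower. Above 1000 TPM the order turned, with 36.0% of 114 transcripts higher and 42.1% lower. After rescaling the higher share was 44.9% between 300 and 1000 TPM and 29.8% above 1000 TPM, against lower shares of 14.9% and 42.1%, so the turn was seen on both scales. In the 3 classes below 10 TPM the rescaled shares of higher calls were 14.3%, 17.0% and 17.0%, beside lower shares of 13.2%, 17.0% and 18.4%.

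**Figure D5:**
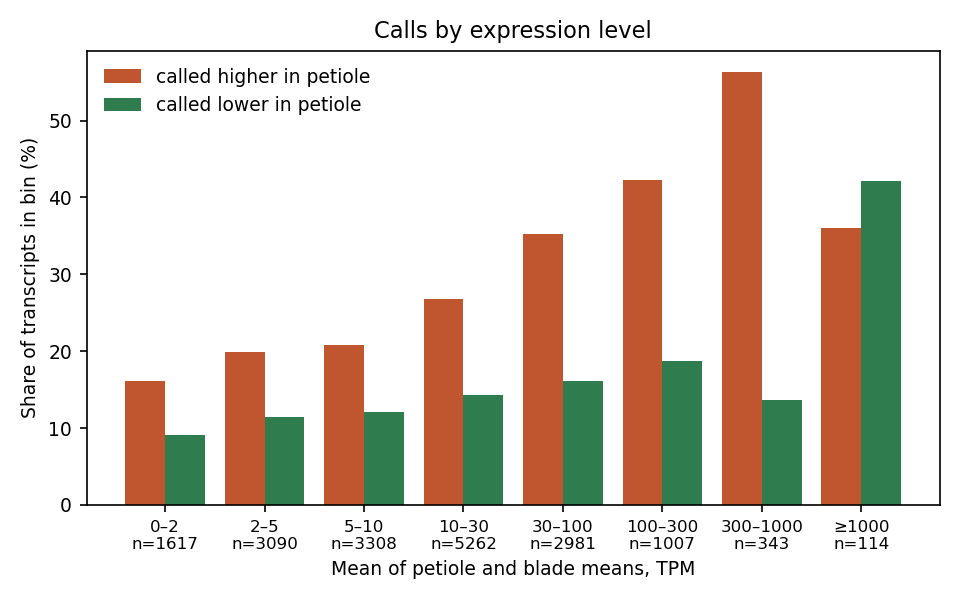
Share of tested transcripts (%) called higher or lower in petiole, by the mean of the petiole and blade means in TPM, with the number of transcripts under each class. Higher calls reach 56.3% between 300 and 1000 TPM, and lower calls reach 42.1% above 1000 TPM.

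With all 8 blade libraries at 0, 320 transcripts were above 0 in some petiole library; 23 of them had at least 1 TPM in each of the 6 petiole libraries, and the highest petiole mean of a transcript listed at 0 throughout the blade was 197 TPM. With all 6 petiole libraries at 0, 289 transcripts were above 0 in some blade library; 22 of them had at least 1 TPM in each blade library, with a highest blade mean of 141 TPM. In the 3 Sheath libraries, 13 of the 23 petiole transcripts were also listed at 0 throughout and 4 were at 1 TPM or more throughout; of the 22 blade transcripts these were 4 and 2. A value of 0 in TPM can be a failed estimate, and no depth is known behind it.

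Blade number 2 had the highest correlation with the petiole. Its Apical and Basal libraries had a mean r of 0.791 with the petiole libraries, against 0.732 for number 1, 0.749 for number 3 and 0.656 for number 4. Among the transcripts called higher in the petiole, the median difference from the petiole mean was 1.02 for blade number 2 and 1.82 for number 4, with 1.64 and 1.32 for numbers 1 and 3. Among those called lower, number 2 was not the nearest, with medians of -1.65, -1.72, -1.85 and -1.62 for numbers 1 to 4. Number 2 was the highest blade value in 66.3% of the transcripts called higher and in 33.0% of those called lower, beside 49.6% of all tested transcripts. After rescaling the shares were 51.2% of the higher, 21.7% of the lower and 34.4% of all tested. Blade number 4 had the highest mean r with the Sheath libraries, 0.802, and number 2 the lowest, 0.734. Without any single blade number, too, more transcripts were called higher than lower on the deposited scale.

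The petiole libraries also differed among themselves. Over the tested transcripts the median SD on the log2(TPM + 1) scale was 0.52 among the 6 petiole libraries and 0.39 among the 4 blade values, and the petiole SD was the larger in 64.5% of transcripts. A blade value is the mean of 2 libraries and a petiole value a single library, and the part of this in the contrast was not tested. Petiole libraries 3 and 6 had the lowest mean r with the other petioles, 0.867 and 0.879, and library 3 also the lowest with the blade, 0.667. Petiole libraries 3 and 6 also listed the most transcripts at 0, 2784 and 2543, against 974 to 1928 in the other petiole libraries. No depth is known, and the part of this in the lower r was not tested. The third principal component, with 8.44% of the variance, placed petiole libraries 1, 3 and 6 at 0.21, 0.51 and 0.36 and libraries 2, 4 and 5 at -0.44, -0.49 and -0.30, while the blade libraries lay between -0.07 and 0.16. The labels give no attribute that separates these petiole libraries.

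The sheath, extracted like the petiole, was also compared with each region. Against the blade, 33.9% of 15631 tested transcripts were called by limma, 2.8% higher in the sheath and 31.1% lower. In petiole against sheath, 52% of 17732 were called, 47.9% higher in the petiole and 4.13% lower. After rescaling these were 7.63% higher and 9.72% lower in sheath against blade, and 17.0% higher and 11.8% lower in petiole against sheath, so both the number of calls and their balance depended on the scale. These comparisons share their petiole and blade libraries with the one above. On the deposited scale the sheath mean lay nearer to the petiole than to the blade for 85.6% of the transcripts called lower in the petiole, for 9.52% of those called higher, and for 39.9% of all tested. It lay below both regions for 50.7%, 69.2% and 75.4% of these. Where it lies below both, the nearer region is the one with the lower mean, which for called transcripts follows from the direction of the call. Sheath libraries were dominated by EVM0020882.1 and EVM0021315.1, and their size factors of 0.364 to 0.794 were below the 1.09 to 1.47 of petiole and the 0.895 to 1.27 of blade. With rescaled libraries the shares nearer to the petiole were 55.0%, 39.2% and 48.4%, and those below both regions 18.4%, 39.4% and 43.9%. The higher and lower classes were defined with the petiole and blade values, and the sheath libraries took no part in that choice.

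Pistia, the floating relative, gave a comparison of the same form with 4 Petiole libraries and 4 averaged blade values. There 50.3% of 16271 transcripts were called by limma, 37.3% higher and 13% lower in the petiole, and after rescaling 25.7% and 20.5%. The median SD among petiole libraries was 0.24 in Pistia and 0.52 in taro, and the median absolute difference between petiole and blade was 0.59 and 0.73. Between Apical and Basal of the same number it was 0.38 in Pistia and 0.22 in taro. Whether these numbers pair in Pistia was not checked. Whether extraction differs between the Pistia regions is not stated here. The tables of the species were normalized separately and transcripts were not matched between them, so no test of these differences between species was made.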

How the data were processed

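Poly-A libraries of taro petiole (n = 6), blade (4 Apical and 4 Basal) and sheath (n = 3), and the Pistia petiole and blade libraries, were used. The authors deposited TPM tables, and the submitters' processing notes name Salmon 1.10.0; for its transcript set, index and filter, details were not given in the sources used here. Every deposited taro transcript exceeded 2 TPM in at least 1 library. TPM carries no depth, so no counting interval is given.

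Apical and Basal log2(TPM + 1) values of a number were averaged. Transcripts with at least 1 TPM in at least 4 of the 10 units were fitted with limma 3.58.1 in R 4.3.3 (moderated variances, mean-variance trend, no replicate block) with calls at 0.05 after Benjamini-Hochberg adjustment. The fit was tested on simulated data. Single values went through an exact permutation test, two-sided (scipy 1.17.1). Size factors were medians of ratios over the 17 taro libraries.

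The comparison and the rule for naming transcripts were chosen with earlier results of these data known. That rule takes the first 8 by difference (mean of at least 10 TPM on the higher side) and the first 5 by level among called transcripts without overlap, the first 2 by difference among called ones that overlap, in each direction, and the 3 most abundant not called. As identifiers carry no gene names, only the first of each of the former 2 sets and the 3 not called are named by identifier. Gene lists could not be used.

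Same-numbered Apical and Basal libraries deviated together. Alternatives covered the pseudocount, filter, scaling, averaging, trend, block, blade region and each replicate.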

Additional observations from a re-analysis of the deposited data

Results flagged for a closer look

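In 3 of 70 checked groups of values a library stood apart from the others of its region. Chance flags about 1 group in 20, so this number is not above chance. All 3 cases lie near the floor of the scale, at 5.71 TPM or below. Each case is a petiole library in which a transcript lower in the petiole was somewhat less low. For the third of the petiole-lower transcripts by difference, petiole library 2 had 5.71 TPM and the others 0 to 0.963, a gap of 0.646 of the range on the log2(TPM + 1) scale. For the fifth, petiole library 4 had 2.37 TPM and the others 0 to 0.489, a gap of 0.673 of the range. For the seventh, petiole library 2 had 1.86 TPM and the other 5 were listed at 0, a gap equal to the whole range, 1. In each of the 3 cases the petiole library remained below every blade library.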

How the results depend on the processing

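The 7104 calls became 6839 with a pseudocount of 0.1, 7229 without a filter, 6038 with a minimum of 5 TPM and 7036 without the trend. They became 8287 with all 17 taro libraries in the fit, 7087 against Apical alone and 6855 against Basal alone. Entering the 8 blade libraries separately gave 9323 calls, and with the blade number as a random effect 7102. Leaving out 1 petiole library or blade number gave 5440 (without blade number 1) to 7058 calls, with 3407 to 4854 higher and 1876 to 2346 lower. The replicate block drops petiole libraries 5 and 6 and gave 5042 calls, of which 3085 were higher, against 3639 higher for the same units without the block term, a fit added after seeing the data. Petiole and blade values that share a number did not pair: their deviations correlated at -0.12, 0.03, 0.02 and 0.11, and none correlated best with its own number. In none of these fits did a transcript called in both have the opposite sign. The fits share most of their libraries, which makes an opposite call unlikely from the start. Among 33 transcripts taken by the naming rule, 0 changed direction in any fit. Fits that changed only the filter or trend, or entered the 8 blade libraries separately, returned the same differences. So did those with the random effect or all 17 libraries, so in these fits no direction could change. A call was lost in 6 of 759 comparisons, all for transcripts whose libraries overlap, and EVM0021315.1 was called in 2 (replicate block, limma adjusted p = 0.0474; without blade number 2). Leaving out units moved the difference in the share of the 10 most abundant between -13.3 and -6.34 points and that in transcripts at 1 TPM or more between 267 and 654. Rescaling, added here after seeing the data, gave 2711 calls in sheath against blade (1192 higher, 1519 lower), 5122 in petiole against sheath (3021 and 2101), and 3333 lower in Pistia petiole. TPM hides depth, and extraction is confounded with region.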

Other observations

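An SD of at least 2 on the log2(TPM + 1) scale was seen for 243 of 17722 tested transcripts among the 6 petiole libraries and for 212 among the 4 blade values. The pair of overlapping transcripts with the largest differences in favour of the petiole varied widely in both regions. The first had 3126, 1470 and 3409 TPM in petiole libraries 1, 3 and 6 and 222, 234 and 69.5 TPM in libraries 2, 4 and 5. In the blade it reached 333 and 1115 TPM in the Apical and Basal libraries numbered 2 and at most 12.7 TPM in the other 6 blade libraries. Its difference was 5.00 (limma adjusted p = 0.0193), and the call was lost without blade number 1, 3 or 4 (limma adjusted p = 0.0641, 0.0534 and 0.0635). Differences of at least 2 that were not called numbered 59, 32 of them higher in the petiole, with a median petiole SD of 1.90.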
